A study of Mus musculus with 8 samples.

Results

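MHC class II molecules display peptides to CD4+ T cells, and the genes described here encode their chains and the factors that assemble and switch them on. The authors' deposited table was searched for the symbols H2-Aa, H2-Ab1, H2-Eb1, Cd74 and Ciita, and all 5 were found once among its 752 genes. Bulk RNA had been sequenced from 8 subcutaneous tumors of MC38, a colon adenocarcinoma line of C57BL/6 mice, taken on day 23 from wild-type, germ-free hosts. The mice of tumors 11, 17, 18 and 19 (replicates 1 to 4) were given an antibody against PD-1, an inhibitory receptor of T cells. Those of tumors 36, 37, 39 and 40 (replicates 1 to 4) were given the same antibody and Fusobacterium nucleatum ATCC-25586, an anaerobic bacterium, by gavage. Both groups therefore carried the same tumor line and the antibody, and no group without antibody was analysed here. The comparison asks how the bacterium alters gene expression in tumors under this therapy.

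An MHC class II molecule is a pair of an alpha and a beta chain. In the mouse, H2-Aa and H2-Ab1 encode the alpha and beta chains of I-A, and H2-Eb1 encodes the beta chain of I-E. C57BL/6 mice carry a deletion that silences the partner of H2-Eb1, the I-E alpha chain, so that I-A is their class II molecule. Cd74 encodes the invariant chain, which holds newly made class II pairs until they reach the compartment where peptide is loaded. Ciita encodes the class II transactivator, a protein that binds no DNA itself but joins the factors RFX, CREB and NF-Y on class II promoters. Dendritic cells, B cells and macrophages carry class II molecules, and interferon-gamma can switch Ciita on in other cells.

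The promoters are shown because the transactivator acts through a short array of sites there, an X box followed by a Y box. RefSeq promoter windows on GRCm38.p6, reaching from 250 bases before to 50 bases after the gene start, were found for H2-Aa and H2-Eb1, and not for H2-Ab1, Cd74 or Ciita. The window of H2-DMb1, which encodes a chain of the class II peptide editor and is described below, is shown beside them because it was the one gene of the 3 for this editor whose window had both sites. Capitals mark matches on either strand to ATTGG, the core of the Y box bound by NF-Y, and to a core of the X box, the site bound by RFX. The windows are chr17:34287774-34288073 on the minus strand for H2-Aa, chr17:34305617-34305916 on the plus strand for H2-Eb1 and chr17:34152941-34153240 on the plus strand for H2-DMb1.
H2-Aa: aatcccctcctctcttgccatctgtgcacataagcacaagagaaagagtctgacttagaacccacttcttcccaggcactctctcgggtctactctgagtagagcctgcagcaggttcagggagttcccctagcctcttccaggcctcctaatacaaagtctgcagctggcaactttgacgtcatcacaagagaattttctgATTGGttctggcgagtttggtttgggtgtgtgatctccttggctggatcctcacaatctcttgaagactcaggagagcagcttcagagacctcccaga
H2-Eb1: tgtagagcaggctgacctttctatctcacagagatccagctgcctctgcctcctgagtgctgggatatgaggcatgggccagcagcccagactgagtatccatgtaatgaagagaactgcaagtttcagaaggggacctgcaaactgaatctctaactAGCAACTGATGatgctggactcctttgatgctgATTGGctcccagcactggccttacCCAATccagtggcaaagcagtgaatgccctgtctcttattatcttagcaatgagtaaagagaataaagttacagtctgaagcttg
H2-DMb1: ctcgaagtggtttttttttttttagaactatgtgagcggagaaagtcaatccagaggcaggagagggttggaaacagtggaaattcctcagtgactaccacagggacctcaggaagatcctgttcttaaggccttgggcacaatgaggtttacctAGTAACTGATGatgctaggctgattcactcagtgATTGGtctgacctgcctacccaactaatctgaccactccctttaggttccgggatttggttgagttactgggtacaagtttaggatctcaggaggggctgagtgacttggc

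In each of the 3 windows ATTGG stood on the gene's strand, 48 bases before the start of H2-Aa, 59 before that of H2-Eb1 and 61 before that of H2-DMb1. ATTGG is common, and 37.4% of 32544 distinct promoter windows hold it on 1 strand or the other. The X box core stood 92 bases before the start of H2-Eb1 and 95 before that of H2-DMb1, and 3.11% of the windows hold it. Both motifs in this order, with ATTGG within 40 bases behind the X box core, were found in 43 of the 32544 windows (0.132%), H2-Eb1 and H2-DMb1 among them. The H2-Aa window had no match to the X box core, nor had the 2 windows of H2-DMa or the 1 window of H2-DMb2, the other chains of the peptide editor. It held TGACGTCA, the full site for CREB, 74 bases before the start (1.80% of the windows hold it; this motif was added after the sequence was read). The H2-Eb1 and H2-DMb1 windows also held the S box core GGACC, 117 and 147 bases before the start, as do 45.4% of the windows. The E box CACGTG was not found in these 3 windows (7.17% of the windows hold it). A match describes letters only, and binding was not measured.

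All 5 genes had lower means in the F. nucleatum tumors (46.9% of the table did), by log2 differences from -1.97 for Cd74 to -2.17 for H2-Eb1, about one size for all members. Tumors 17 and 18 were the highest in every member, and tumor 36 was the highest F. nucleatum tumor in every member. Values are given as the deposited log2 of the normalized read count plus 1, a scale that allows one gene to be compared over tumors. FPKM (fragments per kilobase of transcript, scaled to the size of the library) is used to compare genes. The genes are in the table because the authors' comparison of the same tumors had an unadjusted p of at most 0.05 and an absolute log2 difference above 1 for each gene listed. Their group differences are therefore a description, and nothing is read from their counts. In a bulk tumor, fewer cells of a type and less RNA per cell cannot be told apart.

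H2-Aa (chromosome 17, 34282744 to 34287823, minus strand, GRCm38), the alpha chain of I-A, had log2 values of 11.62, 13.04, 12.83 and 11.85 in tumors 11, 17, 18 and 19. It had 11.57, 10.33, 9.88 and 9.23 in tumors 36, 37, 39 and 40. The groups did not overlap, but tumor 36 lay 0.045 below tumor 11, and its normalized count was 0.969 of that in tumor 11 (95% exact interval 0.925 to 1.02, counting error only). The group difference was -2.08 ± 0.606 (SE, n = 4 each). Mean FPKM was 23.2 ± 10.5 in the first group and 6.13 ± 4.70 in the second (SD).

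H2-Ab1 (chromosome 17, 34257689 to 34269419), the beta chain of I-A, had 11.24, 12.68, 12.77 and 11.92 in the anti-PD-1 tumors and 11.15, 10.32, 9.45 and 9.45 in the F. nucleatum tumors, in the same order. Tumors 39 and 40 were level here, whereas H2-Aa was lower in tumor 40 than in 39. The difference between the group means was -2.06 ± 0.545 (SE), without overlap.

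H2-Eb1 (chromosome 17, 34305867 to 34316674), the I-E beta chain, had 10.98, 12.25, 11.92 and 11.06 in the anti-PD-1 tumors and 10.63, 9.43, 8.81 and 8.63 in the F. nucleatum tumors. The groups did not overlap, and of the 5 members it had the widest gap between tumors 11 and 36, 0.35 on the log2 scale. Its group difference was -2.17 ± 0.550 (SE).

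Cd74 (chromosome 18, 60803848 to 60812652), the invariant chain, had 12.25, 13.67, 14.02 and 12.69 in the anti-PD-1 tumors and 12.32, 11.11, 10.37 and 10.93 in the F. nucleatum tumors. It was the one member whose groups overlapped, since tumor 36 lay 0.071 above tumor 11. Unlike the 3 chains, it was lowest in tumor 39 and not in tumor 40. Its group difference was -1.97 ± 0.582 (SE).

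Ciita (chromosome 16, 10480059 to 10528418), the transactivator, had 7.14, 8.95, 8.68 and 7.25 in the anti-PD-1 tumors and 6.88, 5.46, 5.37 and 5.99 in the F. nucleatum tumors. The groups did not overlap, and the difference was -2.08 ± 0.586 (SE). Mean FPKM was 0.484 ± 0.287 in the first group and 0.107 ± 0.0620 in the second (SD, n = 4 each). Its values rest on few reads: 146 to 403 per anti-PD-1 tumor, 146 in tumor 36, and 37, 50 and 59 in tumors 37, 39 and 40. The counts of the other 4 members ran from 375 reads (H2-Eb1, tumor 40) to 16377 (Cd74, tumor 18).

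**Figure D1:**
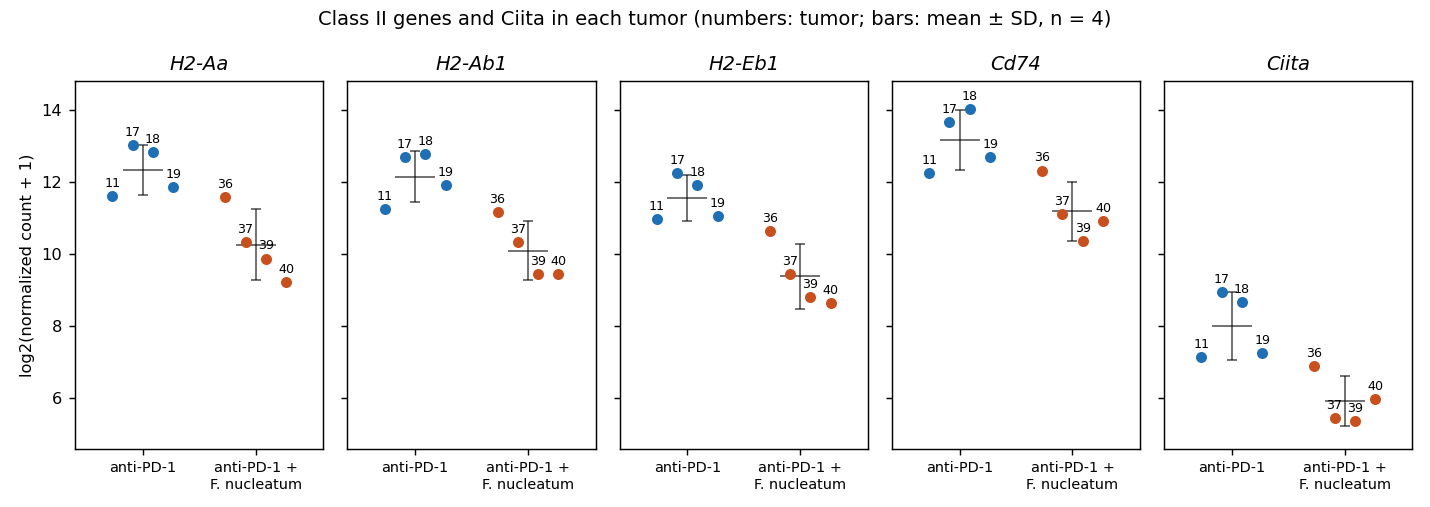
Log2 of the normalized count plus 1 (vertical axis) of the 5 genes in the 4 anti-PD-1 tumors (blue) and the 4 anti-PD-1 + F. nucleatum tumors (orange), with tumor numbers and bars for the mean ± SD. In every panel tumors 17 and 18 are highest and tumor 36 lies beside tumors 11 and 19, within 0.36 of tumor 11.

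The authors' deposited table gave 3 of the 5 members, all lower, an FDR under 0.05: H2-Ab1 (FDR 0.0365), H2-Eb1 (0.0365) and Ciita (0.00181). Of all 752 genes 6.25% were lower at this FDR, and 21.4% passed it in either direction. Cd74 (0.143) and H2-Aa (0.234) were not. Groups without overlap, in the lower direction, were found in 4 of the 5 members and in 12.4% of the table. With limma over all 752 genes, 0 of the 5 members had an adjusted p under 0.05 (0.0932 for each), and neither had any other gene (0% called). At an unadjusted p under 0.05 limma had 323 genes (43%), all 5 members among them, and voom on the recovered reads also called 0 genes. Without tumor 36 all 5 passed (limma adjusted p 0.0186 to 0.0294), as did 140 of the 752 genes, with differences from -2.35 for Cd74 to -2.59 for H2-Eb1. All 5 also passed with each tumor scaled to the same median, where 125 genes of the table passed, and with tumors weighted by their quality, where 238 passed.

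Genes of other tissues were high in some F. nucleatum tumors. Summed FPKM of the 19 skeletal muscle genes in the table (of 20 listed) was 2.11 to 2.60 in the anti-PD-1 tumors and 3.12 to 456 in the F. nucleatum tumors, the highest in tumor 36. The summed level of 16 of 20 listed skin keratinocyte genes was 0.955 to 1.76 FPKM and 1.24 to 370, the highest in tumor 37, while Krt5 and Krt1 were at 0 in the other 7 tumors. Epcam, the one gene of 8 listed for colon epithelium that is in the table, had 160 reads in tumor 37, 3 in tumor 36 and 0 in the other 6. Tumor 37 was also the highest in the skin genes, and the tissue that Epcam came from was not tested. The 7 red blood cell genes in the table (of 10 listed) all had higher means with F. nucleatum, while 46.9% of the table had lower means. By the authors' values 6 of the 7 had an FDR under 0.05, as had 21.4% of the table in either direction. These 7 genes summed to 358 to 658 FPKM in the anti-PD-1 tumors and to 1217, 1457, 1098 and 582 in tumors 36, 37, 39 and 40, so that tumor 40 overlapped with the first group and the other 3 did not. The part of these tissues in the class II values was not tested. Without tumors 36 and 37 the log2 differences of the members were larger: -2.78 for H2-Aa, -2.70 for H2-Ab1, -2.83 for H2-Eb1, -2.51 for Cd74 and -2.33 for Ciita. These tumors had the highest F. nucleatum values of H2-Aa, H2-Ab1, H2-Eb1 and Cd74, and tumor 36 that of Ciita. Leaving them out therefore enlarges the differences in any case and does not bear on the other tissues. Relative size factors of the libraries ran from 0.644 to 1.27, and the reads recovered for the 752 genes from 97511 to 308139 per tumor.

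The order of levels among the chains depended on the transcript length that was assumed. On the deposited FPKM scale Cd74 was the highest member in 8 of 8 tumors and Ciita the lowest in 8 of 8. H2-Ab1 exceeded H2-Aa in 8 of 8 tumors and H2-Eb1 in 7 of 8, and H2-Aa was the lowest of the 3 chains in 7 of 8. In the anti-PD-1 tumors the means were 95.7 ± 50.02 FPKM for Cd74, 30.1 ± 12.9 for H2-Ab1, 25.9 ± 10.9 for H2-Eb1 and 23.2 ± 10.5 for H2-Aa (SD, n = 4). The 3 chains thus differed from each other by less than the spread between tumors, although their order within a tumor was nearly constant.

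The length behind FPKM could be read from the table, since each gene's normalized count divided by its FPKM gives the length used, up to one factor. In all 140 genes with at least 20 reads in every tumor it matched the summed length of all annotated exons (GENCODE M21) within 5%. For H2-Aa this sum is 3798 bases, because a transcript with a retained intron is 3223 bases long, whereas the principal transcript has 1128. H2-Ab1 has 2568 bases of exons and a principal transcript of 1212, H2-Eb1 has 1944 and 1669, Cd74 has 1679 and 1410, and Ciita 9535 and 6007. FPKM therefore understates H2-Aa 3.37-fold if its reads come from the principal transcript, H2-Ab1 2.12-fold, Cd74 1.19-fold and H2-Eb1 1.16-fold.

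Rescaled to the principal transcript, the alpha chain of I-A came before the beta chain. H2-Aa exceeded H2-Ab1 in 7 of 8 tumors, and H2-Eb1 was the lowest chain in 8 of 8. In the anti-PD-1 tumors the rescaled means were 113.9 ± 59.6 for Cd74, 78.0 ± 35.4 for H2-Aa, 63.8 ± 27.4 for H2-Ab1, 30.1 ± 12.6 for H2-Eb1 and 0.768 ± 0.456 for Ciita (SD, n = 4, FPKM scale). In the F. nucleatum tumors they were 29.7 ± 19.7, 20.6 ± 15.8, 16.1 ± 10.1, 7.40 ± 5.45 and 0.171 ± 0.0985. H2-Aa and H2-Ab1 were neighbours whose means differed by less than the spread between tumors in either group, and Cd74 exceeded both in 8 of 8 tumors. The ratio of H2-Aa to H2-Ab1 in single tumors ran from 0.583 to 0.913 in FPKM and from 0.927 to 1.45 after rescaling. Which transcripts the reads come from was not measured, and this rescaling was chosen after the values were seen. It cancels in every comparison of a gene or a ratio between tumors.

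**Figure D2:**
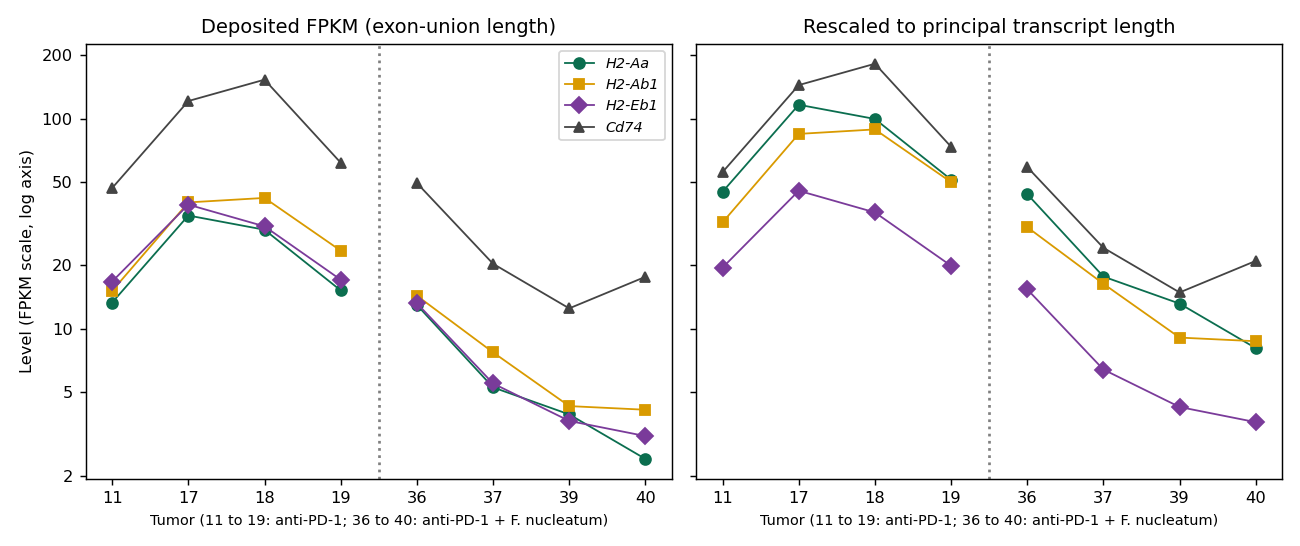
Levels of the 3 class II chains and Cd74 in each tumor (log axis), as deposited FPKM on the left and rescaled from the summed exon length to the principal transcript on the right; the dotted line separates the groups. On the left H2-Ab1 lies above H2-Aa in all 8 tumors, and on the right H2-Aa lies above H2-Ab1 in 7 of 8, all but tumor 40.

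Balance between the members differed little between the groups. Of the 10 ratios among the 5 genes, 0 had a difference between groups with an unadjusted or adjusted p under 0.05 (two-sided exact permutation test over 70 arrangements, smallest p = 0.457, adjusted p = 0.943; the design allows no p below 0.0286, so a single ratio could not pass after adjustment over 10). The largest difference was that of H2-Eb1 to Cd74, -0.20 ± 0.248 on the log2 scale (SE, n = 4 each). For the I-A pair, H2-Aa to H2-Ab1, the log2 FPKM ratio was -0.38 in the anti-PD-1 tumors and -0.40 in the others, a difference of -0.021 ± 0.193 (SE). The 97.1% interval of that difference, from the same exact permutation test, ran from -0.59 to 0.50, so shifts of either sign lie within it. For H2-Aa to H2-Eb1 the difference was 0.095 ± 0.114 (interval -0.31 to 0.43), the narrowest of the 10. The ratios of the 3 chains to Ciita had the widest intervals, such as -1.34 to 0.83 for H2-Aa, while that of Cd74 to Ciita ran from -0.48 to 0.97. Both genes of a ratio had been selected on the same comparison, which favours genes of similar size of difference.

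Tumor 40 had the lowest value of 8 of the 10 ratios. Its FPKM ratio of H2-Aa to Cd74 was 0.136, and the other 7 tumors had 0.193 to 0.313. The ratio of H2-Eb1 to Cd74 was 0.175 there and 0.200 to 0.359 elsewhere, and that of H2-Ab1 to Cd74 was 0.233 there and 0.274 to 0.381 elsewhere. All 3 chains were thus low for the amount of invariant chain in this tumor. Against Ciita the departure was larger for H2-Aa, at 24.4 in tumor 40 and 43.2 to 76.8 in the others, while Cd74 to Ciita was 179 in tumor 40, inside the 152 to 297 of the others. The count of H2-Aa in tumor 40 was 0.640 of that in tumor 39 (95% exact interval 0.578 to 0.708, counting error only). The count of Cd74 was 1.47 times that in tumor 39 (1.38 to 1.57), and that of Ciita 1.55 times (1.04 to 2.30). Tumor 40 had 97511 reads in the table, the fewest, and 569 for H2-Aa. Its relative size factor was 0.946, and the lowest was 0.644, in tumor 17. The reads in the table cover selected genes alone and do not measure depth.

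Within the anti-PD-1 group the highest tumor also differed by gene. H2-Aa, H2-Eb1 and Ciita were highest in tumor 17, and H2-Ab1 and Cd74 in tumor 18. Normalized counts of tumor 17 were 1.15 times those of tumor 18 for H2-Aa (95% exact interval 1.11 to 1.20), 1.25 times for H2-Eb1 (1.19 to 1.31) and 0.782 times for Cd74 (0.761 to 0.802), where counting error is the one error covered. The ratio of H2-Eb1 to Cd74 was 0.359 in tumor 11, 0.321 in tumor 17, 0.200 in tumor 18 and 0.277 in tumor 19. On the log2 scale this ratio ran from -2.32 to -1.48 among the anti-PD-1 tumors. That spread was wider than the difference of -0.20 between the group means.

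**Figure D3:**
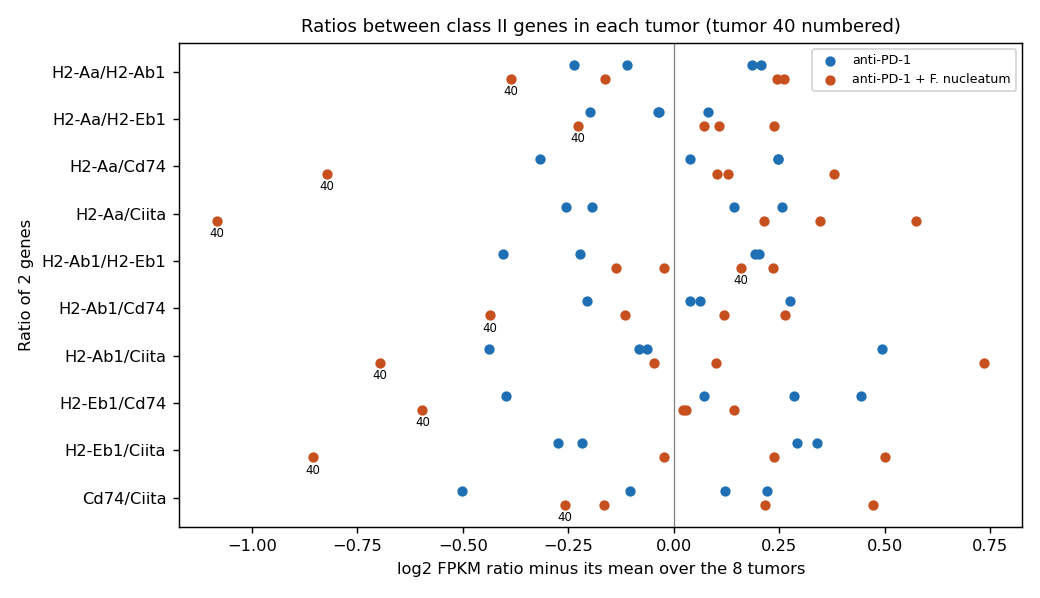
Each of the 10 ratios of 2 genes as log2 FPKM ratio minus its mean over the 8 tumors (horizontal axis), with anti-PD-1 tumors in blue and F. nucleatum tumors in orange. The groups overlap in every row, and tumor 40 (numbered) is the leftmost point in 8 of the 10 rows, down to 24.4 for H2-Aa/Ciita before the log2 and centring.

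Over the tumors of a group the class II genes followed Ciita. The groups differ through the selection of the table, so no correlation is given over both. Each value was instead taken as its deviation from the mean of its own group, which leaves out the selected difference (n = 8 tumors). Of the 4 pairs with Ciita, 3 passed after adjustment over the 10 pairs of members (two-sided exact permutation within groups, 576 arrangements). Cd74 was closest to Ciita, with Pearson's r = 0.920 (exact permutation p = 0.0191, adjusted 0.0318) and Spearman's rho = 0.929 (p = 0.0104, adjusted 0.0208). H2-Eb1 had r = 0.831 (exact permutation p = 0.0278, adjusted 0.0369) and rho = 0.738 (p = 0.0503, adjusted 0.0559), and H2-Ab1 had r = 0.813 (p = 0.0417, adjusted 0.0463) and rho = 0.810 (p = 0.0365, adjusted 0.0456). H2-Aa had r = 0.788 (exact permutation p = 0.0521) and rho = 0.762 (p = 0.0590), and did not pass.

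The calls depend on few tumors. Deviations of Ciita were high in tumors 36 (0.96), 17 (0.94) and 18 (0.68), near 0 in tumor 40 (0.062) and from -0.87 to -0.47 in tumors 11, 19, 37 and 39. Without the 2 tumors farthest from the median of Ciita, 17 and 36, r was 0.905 for Cd74, 0.644 for H2-Ab1, 0.596 for H2-Eb1 and 0.503 for H2-Aa, with exact permutation p from 0.111 to 0.417 over 36 arrangements, and none of the 4 passed. Without tumor 36 alone none passed (r 0.679 to 0.888, exact permutation, adjusted p 0.208 to 0.243). None passed without tumor 11 (r 0.742 to 0.893), tumor 19 (0.774 to 0.925) or tumor 39 (0.778 to 0.920) either, although r lay near the 0.788 to 0.920 of all 8 tumors. With fewer tumors the test has fewer arrangements, and H2-Aa and H2-Eb1, at r = 0.985, also missed the threshold without tumor 11 or 19 (exact permutation, adjusted p = 0.0521). The calls lost without tumor 11 or 19 therefore do not show a weaker relation. Leaving out tumor 39 kept the call of all 6 pairs among H2-Aa, H2-Ab1, H2-Eb1 and Cd74. The pairs with Ciita had adjusted p of 0.0694 to 0.0833 there (exact permutation), so fewer arrangements alone do not account for that loss. Without tumor 17 (r 0.746 to 0.946) or tumor 18 (0.769 to 0.910), 1 of the 4 passed. Without tumor 40 all 4 passed, with r from 0.901 to 0.976, and H2-Aa was then the closest to Ciita (r = 0.976, exact permutation, adjusted p = 0.0174). Slopes within groups were below 1 for all 4 genes, from 0.756 for H2-Ab1 to 0.915 for Cd74 in log2 units per log2 unit of Ciita. The reverse slopes, of Ciita per log2 unit of each gene, were below 1 too, from 0.761 for H2-Aa to 0.926 for Cd74. The slopes therefore do not show that the class II genes vary less than Ciita.

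**Figure D4:**
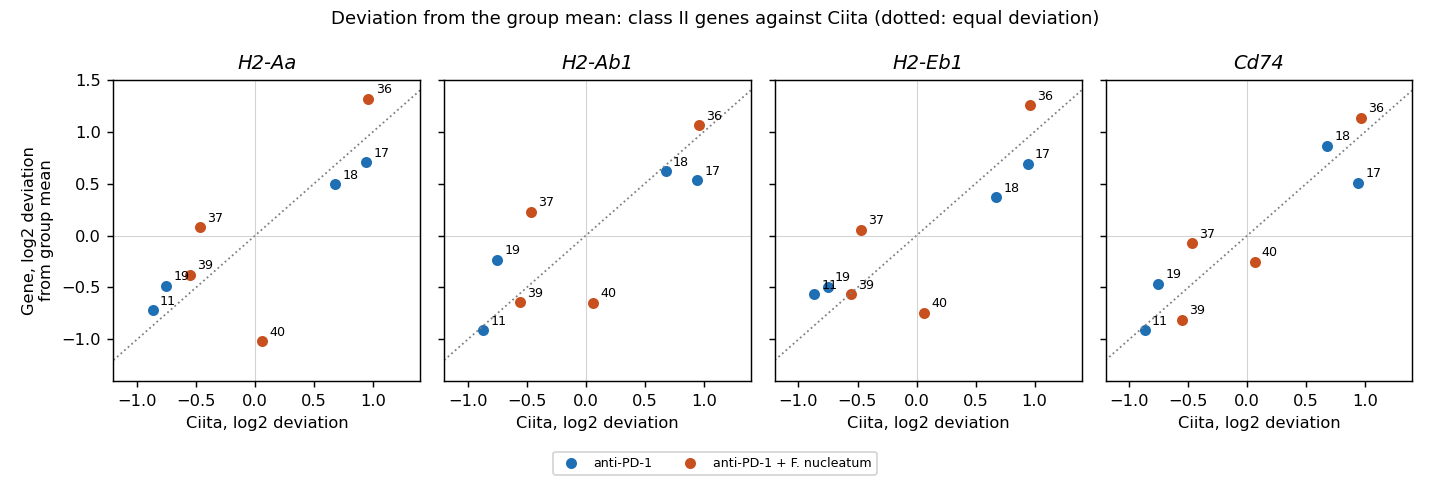
Log2 deviation from the group mean of each class II gene (vertical axis) against that of Ciita (horizontal axis), 1 point per tumor with its number, anti-PD-1 in blue and anti-PD-1 + F. nucleatum in orange; the dotted line marks equal deviation. Tumors 36, 17 and 18 lie at the upper right, and tumor 40 lies below the line, the farthest for H2-Aa (-1.02 against 0.062 for Ciita).

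Over all 8 tumors the class II genes followed each other more closely than they followed Ciita in most pairs, and no test compared the r values. Cd74 was closer to Ciita (r = 0.920) than to H2-Aa (0.878) or H2-Eb1 (0.906). All 6 pairs among H2-Aa, H2-Ab1, H2-Eb1 and Cd74 passed, from r = 0.878 for H2-Aa and Cd74 (exact permutation, adjusted p = 0.0369) to r = 0.985 for H2-Aa and H2-Eb1 (adjusted p = 0.0130). None of the 6 passed without tumor 36 (exact permutation, adjusted p 0.104 to 0.208). Their r then ran from 0.776 for H2-Aa and Cd74 to 0.971 for H2-Aa and H2-Eb1. For H2-Aa and H2-Eb1 rho was 0.976 (exact permutation, adjusted p = 0.0174), and r was 0.963 without tumors 17 and 36. For H2-Aa and Cd74 r was 0.745 without tumors 18 and 36 (exact permutation p = 0.194). The I-A pair H2-Aa and H2-Ab1 had r = 0.950 and rho = 0.929 (exact permutation, adjusted p = 0.0130 and 0.0208), and r = 0.888 without tumors 11 and 36. A single component held 91.7% of the within-group variation of the 5 genes, with loadings from 0.43 (H2-Ab1) to 0.47 (H2-Aa). Counting error is larger for Ciita than for the others, and its part in the looser relation was not tested.

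Among the 492 other genes of the table with a mean normalized count of at least 10, the median r with Ciita was 0.193, and 43 (8.74%) had an r of at least 0.8. Of the 242 lower genes among them 42 (17.4%) had one. The values of the class II genes are therefore not rare in the lower part of the table: 11 other genes had a higher r with Ciita than Cd74, and 49 a higher one than H2-Aa. The 5 other genes closest to Ciita by r over the 8 tumors were Tap1 (0.977), Gm32031 (0.976), Gbp6 (0.949), Gbp3 (0.944) and H2-DMb1 (0.937). Tap1 encodes a subunit of the peptide transporter for MHC class I, and Gbp6 and Gbp3 are guanylate-binding proteins induced by interferon. Tap1 had log2 values of 9.85, 10.89, 10.85 and 9.84 in tumors 11, 17, 18 and 19 and 10.03, 8.86, 8.58 and 9.19 in tumors 36, 37, 39 and 40, and like Ciita it was higher in tumor 40 than in 37 and 39. For Ciita the excess over tumor 37 lay within counting error (1.45 times, 95% exact interval 0.948 to 2.26). Gm32031 had a higher mean with F. nucleatum, by 1.31, so its likeness lies within the groups alone.

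The genes closest to the mean of the 4 class II genes were others. They were AW112010 (r = 0.978), Gm12250 (0.974), Tgtp1 (0.961), Oasl2 (0.954) and Iigp1 (0.949), of which Tgtp1 and Iigp1 are GTPases induced by interferon and Oasl2 is an interferon-stimulated gene. Tgtp1 has a near-identical neighbour, Tgtp2, so its count is uncertain. AW112010 had log2 values of 8.48, 10.04, 9.94 and 8.55 in tumors 11, 17, 18 and 19 and 8.59, 6.73, 6.15 and 6.36 in tumors 36, 37, 39 and 40. With this mean the median r of the 492 genes was 0.330, and 61 (12.4%) had an r of at least 0.8. Of the 242 lower genes 56 (23.1%) had one. The muscle genes Tcap (0.867), Mybpc2 (0.850) and Acta1 (0.804), highest in tumor 36, were also among the 61. The other listed muscle genes in the table were below 0.8, down to 0.459 for Myl1.

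Other genes of the class II pathway were few in the table, and the 4 present of 15 listed all had lower means (46.9% of the table did). Their median log2 difference was -1.27, and that of all 752 genes was 1.18. H2-DMa and H2-DMb1 encode the chains of H2-DM, which exchanges the last fragment of the invariant chain for peptide, and H2-DMb2 encodes a second beta chain for it. H2-DMa had log2 values of 9.12, 9.38, 10.11 and 8.85 in tumors 11, 17, 18 and 19 and 8.62, 8.10, 7.32 and 7.96 in tumors 36, 37, 39 and 40. The groups did not overlap, and the difference of -1.36 ± 0.381 (SE, n = 4 each) had an FDR of 0.00460 in the authors' deposited table. H2-DMb1 differed by -1.17 ± 0.351 without overlap (FDR 0.00825 there). H2-DMb2 (-1.46 ± 0.607) and Cd83 (-1.15 ± 0.514), a protein that keeps class II at the cell surface, overlapped between groups, and neither passed there (FDR 0.839 for H2-DMb2). The H2-DMb1 and H2-DMb2 copies are similar in sequence, and reads could be shared between them.

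The H2-DM chains thus differed by smaller values than the 5 members, and no test of that contrast was made. Their deviations had an r of 0.762 (H2-DMa), 0.937 (H2-DMb1) and 0.303 (H2-DMb2) with Ciita. Of 12 listed genes between interferon-gamma and Ciita, among them Ifng and Irf1, none was in the table, nor was any of 8 listed for the RFX, NF-Y and CREB complex. Their values were not analysed here, and absence from the table sets no bound on a change.

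Markers of the cells that carry class II were nearly all outside the table. None of 15 B cell genes and none of 20 macrophage and monocyte genes was in it, and 2 of 16 dendritic cell genes were. Itgax, the integrin CD11c of dendritic cells and some macrophages, had 1.97, 3.87, 7.20 and 1.94 FPKM in tumors 11, 17, 18 and 19 and 2.10 in tumor 36, 0.840 in tumor 37 and 1.34 in tumor 40, with tumor 39 between the last values. Tumor 36 lay above tumors 11 and 19, so the groups overlapped, and the log2 difference of -1.30 ± 0.529 (SE, n = 4 each) had an FDR of 0.431 in the authors' deposited table. Its deviations had an r of 0.865 with Ciita and of 0.698 with the mean of the class II genes. Siglech, of plasmacytoid dendritic cells, had at most 49 reads and was at 0 in tumors 17 and 40. Its r was -0.51 with Ciita and -0.15 with the mean of the class II genes. The summed level of both genes was 2.10 to 7.29 FPKM in the anti-PD-1 tumors and 0.851 to 2.13 in the others. T cell genes, 11 of 20 in the table, summed to 3.80 to 9.69 FPKM and 0.781 to 3.35, with Cd3d and Cd8b1 at 0 in tumor 40 and Ctla4 at 0 in tumor 39. Their r with Ciita ran from -0.24 for Cd8b1 to 0.51 for Lck. With the mean of the class II genes it ran from 0.078 for Cd8b1 to 0.685 for Lat. The part of either cell type in the class II values was not tested.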

How the data were processed

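TRIzol RNA of 8 tumors went into TruSeq libraries that keep the strand, per the labels' protocols. In the submitters' processing notes the tools are FastQC, STAR 2.5, Cuffnorm and DESeq 1.22.1, and the build is mm10. The sources used here do not say which tool made which value, or which test gave the deposited p-value and FDR. The authors' deposited table holds log2 values, FPKM values, p-values and FDR values for 752 genes, every one with a p-value of at most 0.04995. Replicate numbers follow accession order and pair no tumors. Separate mice are not stated for each tumor, so p-values measure the spread between these tumors.

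The deposited log2 values are log2(normalized count + 1). In each tumor 100% of the normalized counts above 0 were whole multiples of the value of 1 read (tolerance 0.1 read), which gave the reads. Library totals are unknown. An interval of a ratio of reads is exact (binomial) and covers counting error alone, and PCR copies are not independent molecules. Per tumor, 3 reads correspond to normalized counts of 2.37 to 4.66. Group differences were fitted with limma 3.58.1 in R 4.3.3 (eBayes with trend, Benjamini-Hochberg adjustment) on the log2 values of all 752 genes. Ratios used log2 FPKM without a pseudocount. Ratios, correlations and motif searches were computed in Python 3.11.15 with numpy 2.4.6 and pandas 2.3.3. Promoters come from RefSeq on GRCm38.p6 and positions from GENCODE M21 on GRCm38, the assembly of mm10.

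Members, gene lists and tests were chosen with earlier results of these data known. Named genes are the members, the listed pathway genes in the table, and the 5 genes most like Ciita and the 5 most like the mean of the class II genes. Marker genes and Epcam were named beyond this rule, after their values were seen. Alternatives were other scalings, pseudocounts, filters and weights, each tumor left out in turn, and, added later, voom and the principal transcript length. Matches to 1 further motif are not reported here.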

Additional observations from a re-analysis of the deposited data

Results flagged for a closer look

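In the F. nucleatum group the log2 FPKM ratio of H2-Eb1 to Cd74 was lowest in tumor 40, and its gap to the next tumor was 0.835 of the range of the group, above Dixon's 95% critical value for 4 samples. It was the one case among 30 groups of 4 values (5 genes and 10 ratios in 2 treatments). Chance marks about 1 in 20 such groups.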

How the results depend on the processing

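The number of members with a limma adjusted p under 0.05 was 0 of 5. It was 5 with median centring (125 calls in the table) and 5 with array weights (238 calls), 3 with quantile normalization (8 calls) and 3 without tumors 36 and 37 (126 calls). It ranged from 0 to 5 with single tumors left out, 5 being the value without tumor 36. All 5 members stayed lower in each of these settings. Median centring shifts every difference by -0.61, and the table holds selected genes alone, so a common median need not hold. With log2(FPKM + 1), log2(FPKM + 0.1), a filter at 1 FPKM (which drops Ciita), no trend, or voom the count was 0. The number of class II genes whose correlation with Ciita passed was 3 of 4. It was 4 with log2(FPKM + 1) and with log2(FPKM + 0.1), 3 with median centring, 0 without tumors 17 and 36, and ranged from 0 to 4 with single tumors left out. All 4 correlations kept their sign in each setting. No ratio passed in any setting, but with so few arrangements a single ratio could not pass after adjustment over 10, so this says nothing about stability. The 4 other pathway genes stayed lower throughout, except that a filter at 1 FPKM left 3 of them. Selection of the table on the size of this difference favours a constant direction, for the members too. No paired analysis was possible because the labels carry no replicate numbers, and those used here follow accession order. Depth was least for Ciita, with 37 to 59 reads in 3 tumors.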
